A study of Mus musculus with 8 samples.

Results

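Acta2, which encodes the smooth muscle alpha-actin, and Tagln, which encodes the actin-binding protein transgelin, are 2 of the 712 genes in a deposited table of mouse embryo cell states. They were taken by name and followed across all 42 state columns, with the heart states set against the extraembryonic mesoderm states. The samples were 8 libraries from pooled whole wild-type embryos. Days 6.5 and 7.0 had 1 library each, from 10 and 9 embryos, while days 7.5, 8.0 and 8.5 had 2 libraries each, from pools of 7 and 4 embryos on day 7.5 and of 10 on the later days. The 2 libraries of day 8.0, and those of day 8.5, are labelled a and b of the same replicate number, and the labels do not say whether both came from 1 pool of embryos. The embryos came from B6D2F1 oocytes injected with B6/CAST F1 sperm and grew in CD-1 surrogate females. Outer extraembryonic tissue was kept where possible, and the dissociated cells went through droplet-based single-cell RNA sequencing (10x Genomics 3' chemistry).

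The table gives 1 value per gene and numbered cell state, the centre of a cluster of cells, called the level here. Its columns name no library, stage or cell number, so all libraries were taken as pooled, depth per state is unknown, and no level has a replicate error or a test. A level averages over the cells of a state, so a high value in a few cells and a moderate value in many cannot be told apart. The 712 genes may also have served to define the states, and differences between states are given as descriptions. Between classes of states, a gene had to differ by at least 0.5 in mean level, with non-overlapping states, to be counted as higher or lower.

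Marker lists without Acta2 and Tagln were used to check the state labels. State 21 was heart tube-like, with all 14 measured heart tube markers over 1 SD above their mean across states. State 6, the other heart state, took no name: it scored highest for the second heart field and splanchnic mesoderm list (2.28 SD, against 1.37 for the heart tube list), while 4 of its 10 leading genes were heart tube markers, namely Myl7, Myl4, Tnni1 and Tnnt2. States 15 and 41 were extraembryonic mesoderm-like, with 14 of 15 measured markers over 1 SD above their mean in each. Summed levels of 11 endothelium markers ran from 0.321 to 0.529 in these 4 states, those of 5 primitive blood markers from 0.568 to 0.786, and those of 8 visceral endoderm markers from 0.659 to 0.869. Those of 7 differentiated trophoblast markers were 0.622 and 0.632 in states 6 and 21 against 1.65 and 1.69 in states 15 and 41. They include Hand1, also an extraembryonic mesoderm marker, which was at 0.404 and 0.374 against 1.09 and 1.15. The median standardised level of the trophoblast list was -0.33 and -0.27 against -0.26 and -0.32 SD, in the same order of states. The part of these markers in the results was not tested. Of 24 listed genes of smooth muscle and its contractile apparatus only 5 are in the table (Acta2, Tagln, Cnn1, Myl9 and Tpm4), so the smooth muscle label of both genes could not be checked against a mature smooth muscle set, and genes such as Myh11 were not analysed here.

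Smooth muscle alpha-actin polymerises into the thin filaments on which smooth muscle myosin pulls, and transgelin binds and bundles such filaments. Both genes are classical early markers of the smooth muscle lineage, but the embryonic heart also uses smooth muscle alpha-actin before its cardiac alpha-actin, encoded by Actc1, takes over. Many muscle genes of both kinds are controlled by serum response factor, which binds CArG boxes in their promoters together with cofactors of the myocardin family. Extraembryonic mesoderm lines the yolk sac, amnion and chorion and is a source of the allantois and of the first vessels.

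Acta2 lies on chromosome 19 (34241090 to 34255590, minus strand, GRCm38), and its main transcript has 9 exons over 2035 bases. Tagln lies on chromosome 9 (45929619 to 45936058, minus strand), and its main transcript has 5 exons over 1595 bases. No stretch of 31 bases of the main Acta2 transcript was found in the main transcripts of Actc1, Acta1 or Actg2, its close actin relatives. The Tagln gene overlaps 108 bases of Pcsk7 and a 3627-base antisense gene, Gm48529, both on the other strand. The sources used here do not state the strand setting of the counting, and whether reads from these genes entered the Tagln values was not tested.

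The promoters of Acta2, of the cardiac actin gene Actc1 and of the myosin light chain gene Myl9 are printed because Actc1 and Myl9 were among the genes whose levels across states were most like those of Acta2. They come from RefSeq (GRCm38.p6) and run from 250 bases before to 50 after the annotated start. Capitals mark CArG boxes, searched as CC, then 6 bases of A or T, then GG, a pattern that reads the same on both strands, with up to 1 other base allowed among the 6. No entry for Tagln was found in this table.
Acta2 (chr19:34255324-34255623, minus strand): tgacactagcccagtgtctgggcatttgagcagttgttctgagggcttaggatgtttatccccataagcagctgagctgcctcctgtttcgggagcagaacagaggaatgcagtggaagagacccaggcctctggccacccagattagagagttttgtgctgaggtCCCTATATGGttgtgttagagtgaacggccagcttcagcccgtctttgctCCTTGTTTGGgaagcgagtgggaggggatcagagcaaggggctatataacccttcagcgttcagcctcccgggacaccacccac
Actc1 (chr2:114052826-114053125, minus strand): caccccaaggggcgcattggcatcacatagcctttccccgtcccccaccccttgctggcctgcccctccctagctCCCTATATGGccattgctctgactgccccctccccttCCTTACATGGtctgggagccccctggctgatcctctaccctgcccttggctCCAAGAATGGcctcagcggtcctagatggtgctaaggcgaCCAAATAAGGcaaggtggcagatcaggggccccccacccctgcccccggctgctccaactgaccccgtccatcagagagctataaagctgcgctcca
Myl9 (chr2:156775214-156775513, plus strand): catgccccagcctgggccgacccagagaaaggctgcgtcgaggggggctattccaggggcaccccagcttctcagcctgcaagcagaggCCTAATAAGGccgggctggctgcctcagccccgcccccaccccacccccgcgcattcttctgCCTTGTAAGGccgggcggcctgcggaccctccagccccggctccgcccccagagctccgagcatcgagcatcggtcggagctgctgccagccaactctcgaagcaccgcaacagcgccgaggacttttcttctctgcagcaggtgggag

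The Acta2 window held 2 such boxes, CCCTATATGG beginning 84 bases and CCTTGTTTGG beginning 34 bases before the RefSeq start, and each has 1 base outside the strict pattern. That start lies 217 bases inside the GENCODE gene, whose annotated end is farther upstream. Actc1 held 4 boxes, of which CCAAATAAGG at 47 bases before the start is strict, and its box at 175 bases before the start has the same letters as the upstream Acta2 box. These distances are from the RefSeq start, and the whole Actc1 window lies inside the GENCODE gene (114047282 to 114053548, minus strand). Myl9 held the strict box CCTAATAAGG at 161 bases and CCTTGTAAGG at 99 bases before the start. Across 32851 promoters of the same length, 9.98% held a box with up to 1 other base and 1.63% a strict one. The windows of Cnn1, the smooth muscle calponin gene, and of Tpm4, a tropomyosin gene, held none. Windows of other genes most like Acta2, such as Nexn and Popdc2, were not read one by one. A match is a description of letters and not of binding.

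Acta2 and Tagln were at their highest in the same 3 states, heart tube-like state 21 and extraembryonic mesoderm-like states 41 and 15. Acta2 was at 1.59 in state 21, at 1.47 in state 41 and at 1.35 in state 15. Tagln was at 1.17 in state 41, at 1.12 in state 21 and at 0.998 in state 15. The heart tube-like state thus lay above both extraembryonic mesoderm-like states for Acta2 and between them for Tagln, with gaps of 0.115 to 0.123 between neighbouring Acta2 levels and of 0.0467 to 0.127 between neighbouring Tagln levels. No spread is known for these levels, and the order within the 3 states is given without a test.

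Below these 3 states the genes differed in how they stepped down. For Acta2 the step from state 15 to the next state was 0.712, and for Tagln it was 0.396. Acta2 stood at 0.638 in state 5, 0.633 in state 34, 0.624 in state 6 and 0.613 in state 16. These 4 states formed a tier of their own within 0.0249 of each other, and the next, presomitic mesoderm-like state 30, was at 0.346. Tagln came next in the same 4 states, in another order, at 0.602 in state 16, 0.560 in state 34, 0.384 in state 6 and 0.377 in state 5. They formed no separate tier for Tagln, since they spanned 0.225 with a gap of 0.176 between states 34 and 6, and gut endoderm-like state 7 followed state 5 at 0.345.

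**Figure D1:**
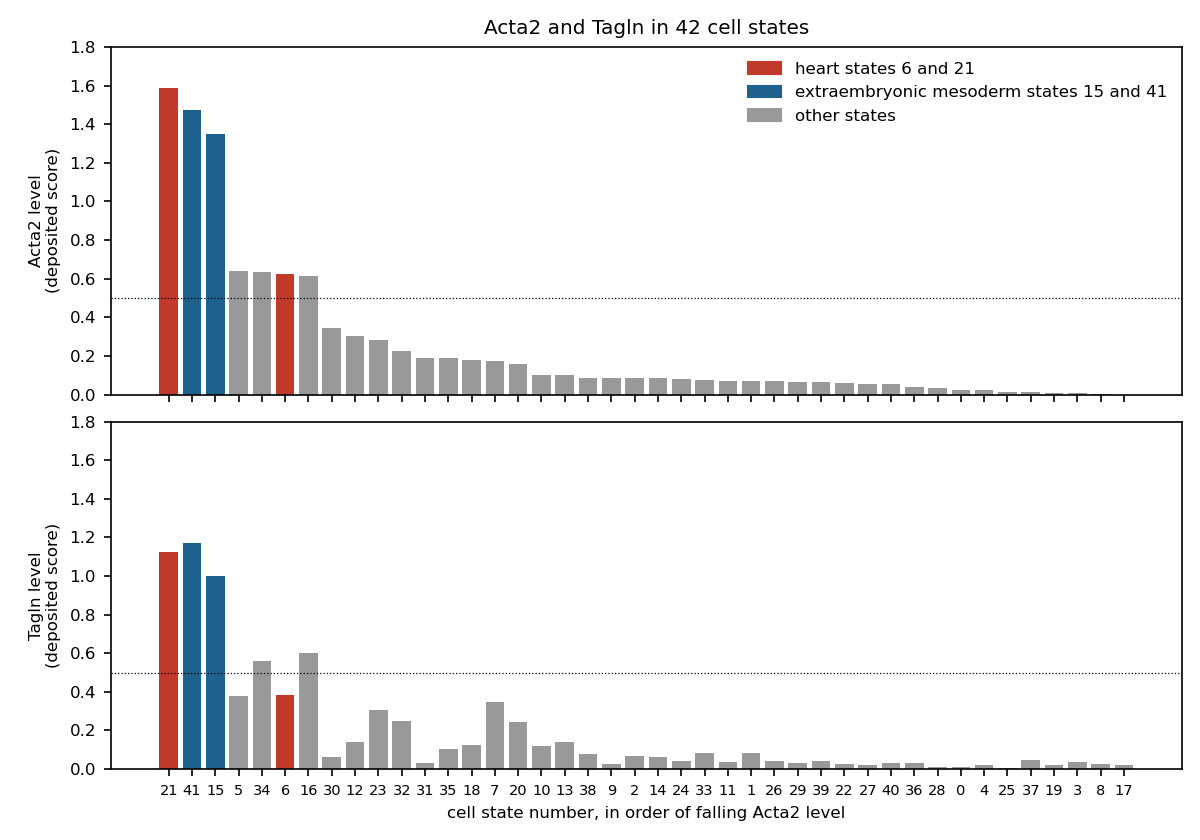
Level of Acta2 (top) and Tagln (bottom) as the deposited score in each of the 42 cell states, with states in the order of falling Acta2 level in both panels. Bars of states 21, 41 and 15 stand at 1.35 or above for Acta2 and at 0.998 or above for Tagln, and the dotted line marks 0.5.

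None of these 4 states took a name from the marker lists, and their 10 leading genes overlapped in part. State 5 was led by Spin2c, Phlda2 and the mesodermal transcription factor gene Hand1, state 34 by Prrx2, Nnat and the collagen gene Col3a1, and state 16 by the ligand gene Wnt6, Pmp22 and the simple keratin gene Krt8. Pmp22 and Krt8 were leading genes of both states 5 and 16, and Prrx2 of both states 6 and 34. State 16 scored highest for the amnion list (1.92 SD over 6 measured markers), while surface ectoderm markers were the most frequent among its leading genes.

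Most states held little of either gene. Acta2 reached 0.5 in 7 states and was under 0.1 in 24, and Tagln reached 0.5 in 5 states and was under 0.1 in 26. The median over states was 0.0839 for Acta2 and 0.0619 for Tagln. In the 4 epiblast-like states Acta2 ran from 0 to 0.00730, and state 17, at 0, was the only state in which the gene is listed at 0. Tagln ran from 0.0194 to 0.0363 in the same states. In nascent mesoderm-like state 37 Acta2 was at 0.0153 and Tagln at 0.0455, so both genes were under 0.1 in this first mesoderm. The lowest Tagln levels were in trophoblast lineages, at 0.00672 and 0.0108 in extraembryonic ectoderm-like states 25 and 0 and at 0.00917 in differentiated trophoblast-like state 28.

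Other lineages were low to intermediate, and for Tagln the visceral endoderm-like states lay within the range of the epiblast-like states. Acta2 ran from 0.0223 to 0.0674 in the 3 visceral endoderm-like states and Tagln from 0.0217 to 0.0308. In the 4 hindbrain and spinal cord-like states Acta2 ran from 0.0668 to 0.0820 and Tagln from 0.0343 to 0.0838. The 2 endothelium-like states held Acta2 at 0.101 and 0.223 and Tagln at 0.139 and 0.251, with state 32 the higher for both. The 2 somite and paraxial mesoderm-like states held Acta2 at 0.157 and 0.181 and Tagln at 0.126 and 0.245.

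Over the 42 states the levels of both genes had a Pearson correlation of 0.971 and a Spearman correlation of 0.872. The states share libraries and are not independent, and no p-value is given. Without states 21 and 41, the farthest from the median Acta2 level, Pearson's r was 0.937 over 40 states, and without the heart and extraembryonic mesoderm states it was 0.874 over 38. Among the 35 states with both genes under 0.5 it was 0.635.

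The genes parted, by place or by standardised level, in some states outside the top 3. Presomitic mesoderm-like state 30 was 8th for Acta2 (0.346) but 21st for Tagln (0.0630), and neuromesodermal progenitor-like state 31 was 12th for Acta2 (0.191) and 29th for Tagln (0.0340). Gut endoderm-like state 7 went the other way, with Tagln at 0.345 in 8th place and Acta2 at 0.174 in 15th. By place, nascent mesoderm-like state 37 (38th for Acta2, 23rd for Tagln) and epiblast-like state 3 (40th and 27th) parted more in that direction. Both genes were under 0.1 in these 2 states. With each gene standardised over the 42 states, the difference of Acta2 minus Tagln was 0.69 SD in state 30 and -0.71 SD in state 7. These are the extremes over all states. Next in size were state 16 (-0.45 SD) and somite and paraxial mesoderm-like state 20 (-0.42 SD), then state 31 (0.39 SD).

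**Figure D2:**
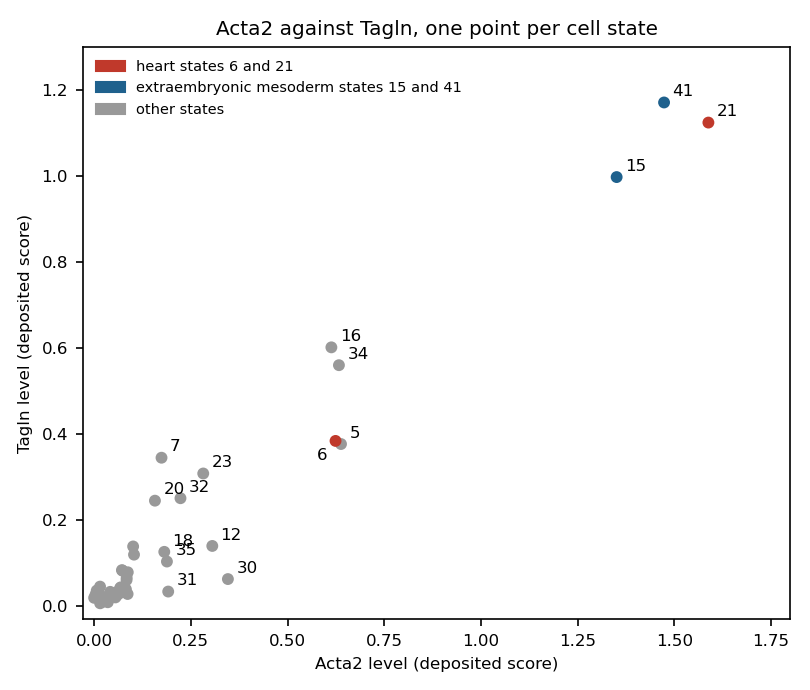
Acta2 level against Tagln level (deposited scores), with 1 point per cell state and numbers at the higher points. States 21, 41 and 15 stand apart at the upper right, states 16, 34, 6 and 5 share an Acta2 level near 0.6 but spread from 0.377 to 0.602 for Tagln, and states 30 and 31 lie low for Tagln.

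Set as classes, heart against extraembryonic mesoderm, neither gene was counted as different. Acta2 was at 0.624 and 1.59 in heart states 6 and 21 against 1.35 and 1.47 in states 15 and 41. The heart mean was 1.11 and the extraembryonic mesoderm mean 1.41, a difference of -0.31. Tagln was at 0.384 and 1.12 against 0.998 and 1.17, with means of 0.754 and 1.08 and a difference of -0.33. The heart states spanned a far wider range than the extraembryonic mesoderm-like states and overlapped them for Tagln, and for Acta2 they lay on both sides of them. With state 21 alone as heart both differences changed sign, to 0.18 for Acta2 and 0.04 for Tagln, and with state 6 alone they were -0.79 and -0.70. Over all genes, 14 (1.97%) were higher in the heart states and 22 (3.09%) in extraembryonic mesoderm, and the median difference was 0.00.

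Among the genes that were counted, only the largest differences in each direction are named here. The 8 with the largest differences towards heart were Myl7 and Myl4, Mef2c, Ttn, Nkx2-5, Myl3, Ankrd1 and Csrp3, all known from heart muscle. Myl7, an atrial myosin light chain gene, was at 0.926 and 1.75 in states 6 and 21 against 0.435 and 0.139 in states 15 and 41. Nkx2-5, a transcription factor of the early heart, was at 0.369 and 1.02 against 0.0152 and 0.00368. The 8 largest towards extraembryonic mesoderm were Lum, Col1a1, Igfbp2, Postn, Anxa2, Hand1, Gas6 and Col1a2. Lum, which encodes the collagen-binding proteoglycan lumican, was at 0.0794 and 0.0174 in the heart states against 0.904 and 1.18. Myl7, Myl4, Ttn, Nkx2-5, Myl3 and Csrp3 are also heart tube markers, and Col1a1, Postn, Hand1 and Col1a2 extraembryonic mesoderm markers. States 21, 15 and 41 were named by these lists, so the place of these marker genes here is no independent evidence.

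**Figure D3:**
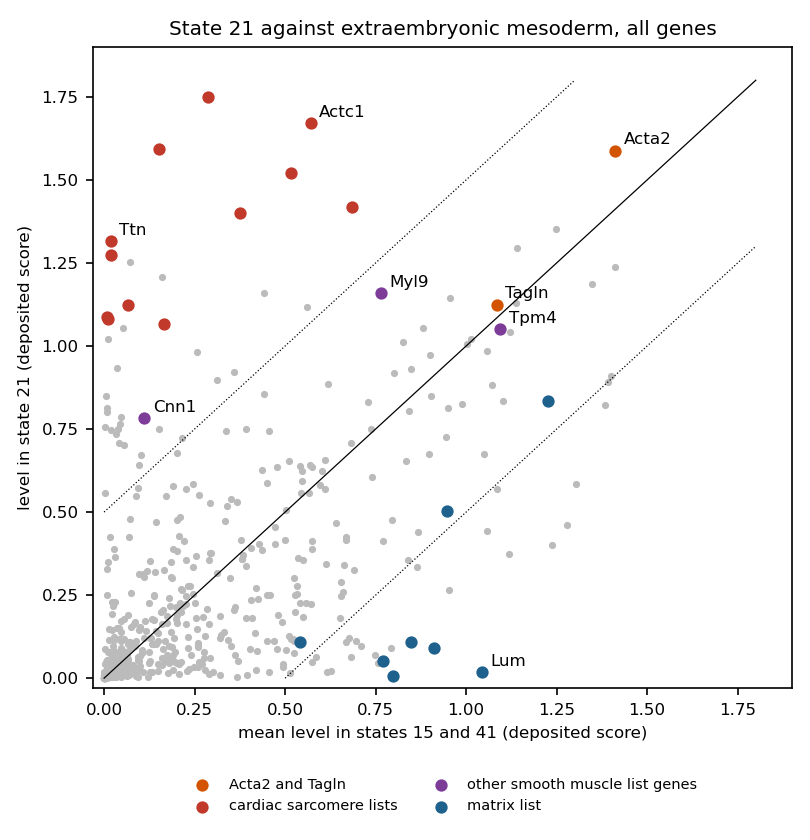
Level of each of the 712 genes in heart tube-like state 21 (vertical axis) against its mean level in extraembryonic mesoderm-like states 15 and 41 (horizontal axis), both as deposited scores. Acta2 (1.59 against 1.41) and Tagln (1.12 against 1.08) lie near the solid line of equal levels, while sarcomere genes such as Actc1 lie above the upper dotted line (a difference of 0.5) and matrix genes such as Lum below the lower.

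The other smooth muscle genes of the list did not all follow Acta2 and Tagln. Cnn1, the calponin gene of later smooth muscle, was at 0.783 in state 21, 0.0587 in state 6, 0.0830 in state 15 and 0.139 in state 41. It was therefore high in the heart tube-like state and low in extraembryonic mesoderm. Myl9, the regulatory light chain of smooth muscle and non-muscle myosin, was at 1.16 in state 21, 0.229 in state 6, 0.675 in state 15 and 0.857 in state 41. Tpm4 differed little, between 0.942 and 1.12 in these 4 states, and had its highest level, 1.23, in endothelium-like state 32. Of the 5 measured genes none was counted in either direction between the heart and extraembryonic mesoderm classes (median difference -0.10). Between these classes 1.97% of all genes were higher in heart and 3.09% lower. With state 21 alone as heart, Cnn1 was counted as higher in heart (0.67), where 5.48% of all genes were higher and 3.79% lower. Myl9 differed by 0.39 and Tpm4 by -0.04, and neither was counted. Both list medians include Acta2 and Tagln, and the median with state 21 alone, 0.18, is the Acta2 value itself.

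Cardiac sarcomere genes gave another picture. All 12 measured genes of the thin filament and of the thick filament and titin were highest in state 21 and were higher there than in both extraembryonic mesoderm-like states, by 0.73 to 1.46. Over all genes, 5.48% were higher in this comparison and 3.79% lower. Most of the 12 are also heart tube markers by which state 21 took its name, and their count is no independent evidence. Actc1 was at 1.67 in state 21 and 0.564 in state 6, against 0.494 in state 15 and 0.649 in state 41. The cardiac actin gene thus separated the heart tube-like state from extraembryonic mesoderm by 1.10, where the smooth muscle actin gene differed by 0.18. With states 6 and 21 together as heart, the 7 thick filament and titin genes were all higher in heart (median difference 0.66), and of the 5 thin filament genes only Tnnt2, the cardiac troponin T gene, was (median 0.50). Over all genes, 1.97% were higher in heart in that comparison and 3.09% lower. In states 15 and 41 the 5 thin filament genes ran from 0.135 (Nebl in state 41) to 0.769 (the troponin I gene Tnni1 in state 41). The 7 thick filament and titin genes ran from 0.00326 (the myosin heavy chain gene Myh6 in state 15) to 0.435 (Myl7 in state 15). The ranges of both lists overlapped in extraembryonic mesoderm.

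**Figure D4:**
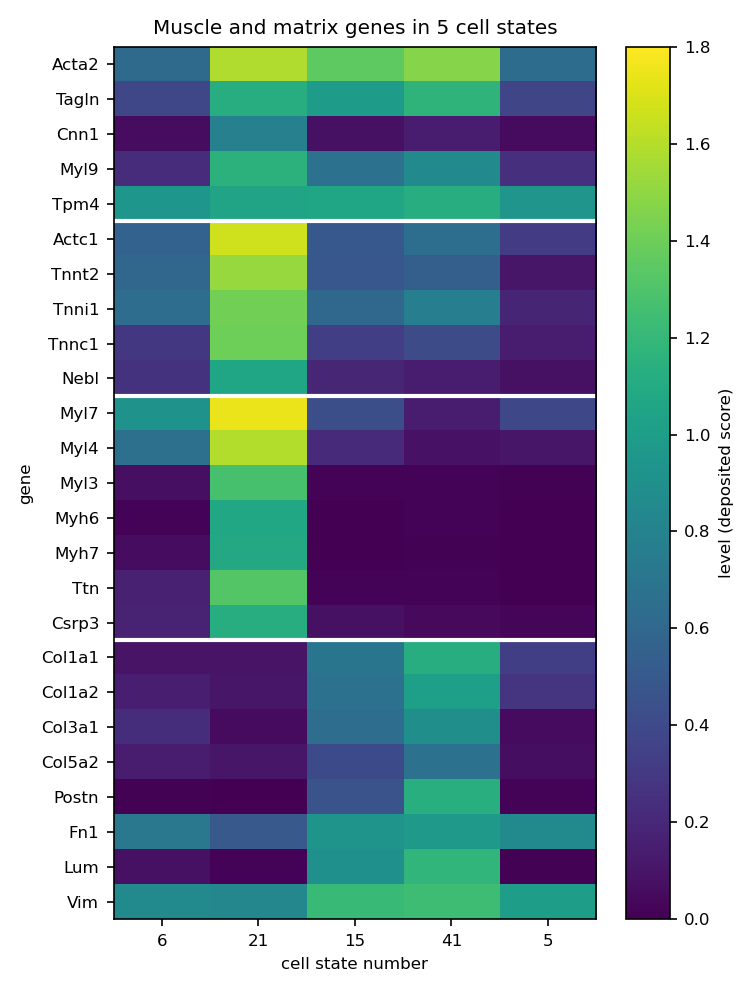
Levels (deposited score, colour scale from 0 to 1.8) of measured genes of 4 lists, separated by white lines, in states 6, 21, 15, 41 and 5: smooth muscle, cardiac thin filament, cardiac thick filament and titin, and matrix. Acta2 and Tagln are bright in states 21, 15 and 41, sarcomere genes in state 21, and Col1a1, Postn and Lum in states 15 and 41.

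Regulators and matrix genes were read from lists in the same way. None of the 8 listed genes of serum response factor and its cofactors is in the table. Of 14 measured cardiac and mesodermal transcription factors, Nkx2-5 and Mef2c were higher in the heart states and Hand1 and Pitx1 in extraembryonic mesoderm (list median -0.04). Hand2 and Tbx20, which are used in heart and in other mesoderm, differed by -0.04 each. Hand2 was at 0.375 and 0.338 in the heart states against 0.330 and 0.455, and Tbx20 at 0.167 and 0.628 against 0.388 and 0.482. Of 6 measured genes of transforming growth factor beta and BMP signalling none was counted (median -0.08). Bmp4 was just under the threshold, at 0.399 and 0.335 in the heart states against 0.758 and 0.971. Of 8 measured matrix and mesenchymal genes, 5 were higher in extraembryonic mesoderm (Col1a1, Col1a2, Col3a1, Postn and Lum) and none in heart (median -0.67). Over all genes, 1.97% were higher in the heart states and 3.09% in extraembryonic mesoderm. Col1a1, Col1a2, Col3a1, Postn, Hand1 and Pitx1 are also markers by which states 15 and 41 took their name. Nkx2-5 is a heart tube marker, and Lum is on neither list. For the marker genes these counts are no independent evidence. Ankrd1, the only measured gene of the immediate serum response list, was at 1.25 in state 21 and at 0.110 or lower in states 6, 15 and 41.

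Within the heart states, Acta2 differed by 0.96 and Tagln by 0.74 between heart tube-like state 21 and state 6, and both were counted as higher in state 21. By the size of this difference Acta2 was 10th and Tagln 23rd of 712 genes, of which 5.06% were higher in state 21 and 0.140% lower. Besides Acta2 and Tagln, Cnn1 (0.72) and Myl9 (0.93) of the smooth muscle list were higher in state 21, and Tpm4 (0.11) was not counted. All 12 sarcomere genes were higher there. Most of the 12 are heart tube markers by which state 21 took its name, and their count is no independent evidence. This comparison was added after the values had been seen. States 15 and 41 differed from each other by 0.12 for Acta2 and 0.17 for Tagln, with state 41 higher for both.

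Extraembryonic mesoderm was also set against state 5, because both share Hand1 at high levels (1.09 and 1.15 in states 15 and 41, 0.971 in state 5). Acta2 was higher in states 15 and 41 by 0.77 and Tagln by 0.71, where 2.95% of all genes were counted as higher. Acta2 was 5th and Tagln 8th of 712 genes in this difference. Pitx1, a homeobox gene of posterior and extraembryonic mesoderm, was at 0.550 and 0.679 against 0.702 in state 5, and did not share the difference of the smooth muscle pair.

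The gene most like Acta2 across the 42 states was Tagln, and the gene most like Tagln was Acta2. Of the 10 genes with the highest correlation with each, 7 were shared: Nexn, an actin-binding protein gene of muscle, Popdc2, a membrane protein gene of heart and muscle, Myl9, Tgfb1i1, a focal adhesion protein gene, Tbx20, Runx1t1 and Tmem108. Nexn had r = 0.924 with Acta2 and 0.902 with Tagln, and Myl9 had 0.903 and 0.943. Acta2 alone had Actc1 (0.861) and Hand2 (0.854) in its 10, and Tagln alone had the receptor gene Nrp1 (0.811) and the transcription factor gene Snai2 (0.808). The cut at 10 parts these genes narrowly, since Actc1 had r = 0.807 with Tagln, just below Snai2. Hand2 had r = 0.781 with Tagln. The median r of all other genes was -0.04 with Acta2 and -0.03 with Tagln. Among the genes least like both were Dnmt3b, the de novo DNA methyltransferase gene of the epiblast (-0.44 with Acta2 and -0.40 with Tagln), and Bst2 (-0.46 and -0.42). The gene lowest with Tagln was Ndufaf2 (-0.46), and Tpd52 (-0.43) was also among the 3 lowest with Acta2.

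For part of these genes the correlation was lower once the heart and extraembryonic mesoderm states were left out. Without states 6, 21, 15 and 41, Tmem108 had the lowest r of the 10 with Acta2, 0.450, and moved from place 9 to place 89. Tbx20 had r = 0.491 with Acta2 and moved from place 5 to place 72. Tgfb1i1 had 0.514 and Hand2 0.578. Tagln stayed first for Acta2 at 0.874, Actc1 was in place 3 at 0.820, and Nexn was at 0.774. For Tagln, Myl9 then came first at 0.879, ahead of Acta2, and Snai2 was in place 3 at 0.816. Snai2 was low in state 21 (0.0418) and higher in states 15 (0.409) and 41 (0.578).

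**Figure D5:**
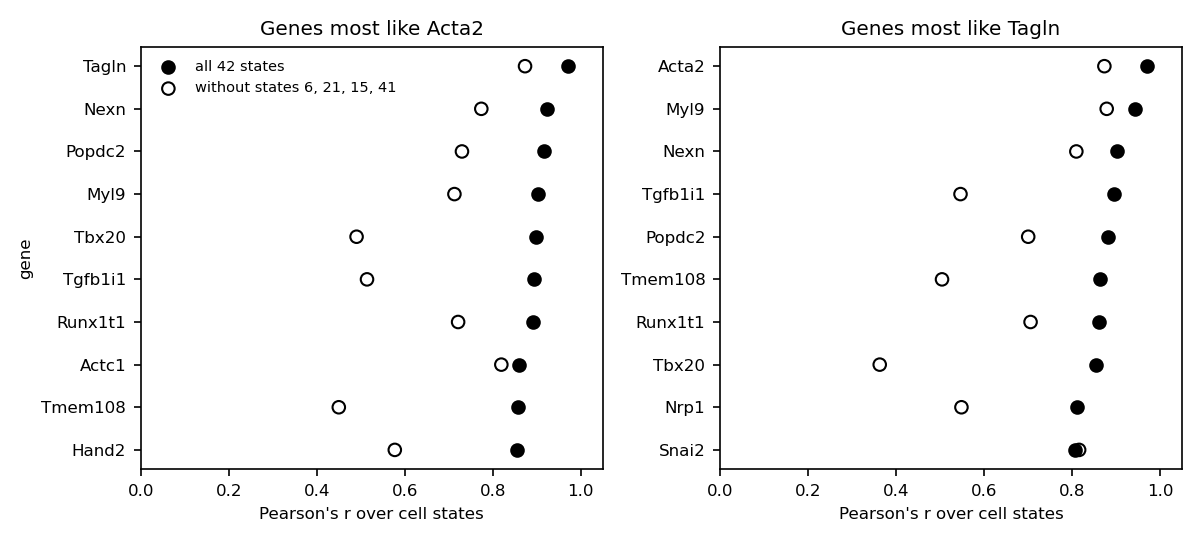
Pearson's r over cell states of the 10 genes most like Acta2 (left) and Tagln (right), over all 42 states (filled points) and without states 6, 21, 15 and 41 (open points). Tagln, Actc1 and Snai2 kept r at 0.816 or above without those states. Tbx20 was at 0.491 with Acta2 and 0.363 with Tagln, and Tmem108 at 0.450 and 0.505.

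The shared top states were also counted over the whole table, a count chosen after the values had been seen. States 21, 15 and 41 were the 3 highest for 12 of 712 genes (1.69%). Among them Acta2 had the widest step down to the next state (0.712, to state 5) and Tagln the second widest (0.396, to state 16). Next came Tgfb1i1 at 0.187, Nexn at 0.178 and Tmem108 at 0.138. The other 7 were Popdc2, Myl9, Cnn1, Wisp1, Plagl1, Tnnc1 and Tbx20, with steps of 0.0474 or less.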

How the data were processed

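Per the submitters' processing notes, reads were processed with Cell Ranger (version not given in the sources used here) on build mm10. Per the file headers, a deposited score gives the cluster centre of a gene in a cell state. How the authors normalised counts, clustered cells, treated doublets and chose the genes, and whether the score is a logarithm, is not given in the sources used here, so no fold changes were computed. The description of 1 day 8.5 library names day 8.0, and no value here depends on it.

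Differences of class means were taken over all 712 genes and counted at 0.5 with ranges apart. The members, gene lists and comparisons were chosen with earlier results of these data known. The comparisons of state 21 with state 6, of states 15 and 41 with state 5 and of state 15 with state 41 were added after the values had been seen. The text names both members, their 10 most and the lowest correlated genes, the 8 largest differences in each direction and measured list members. States were named after the best-scoring marker list (median standardised level, at least 4 measured markers) if at least 3 markers lay over 1 SD above their mean and no other list had more of its 10 leading genes, and 35 of 42 states did. Positions came from GENCODE M21 (GRCm38). Python 3.11.15, pandas 2.3.3 and numpy 2.4.6 were used. Alternatives covered the states in each class, centring, scale, threshold, overlap, a filter on low genes and the correlation.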

Additional observations from a re-analysis of the deposited data

How the results depend on the processing

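The heart and extraembryonic mesoderm differences depend on which states stand for a class. With state 21 alone as heart, Acta2 moved from -0.31 to 0.18 and Tagln from -0.33 to 0.0400. With state 6 alone the values were -0.79 and -0.70, and with state 5 added to extraembryonic mesoderm they were -0.0481 and -0.0943. Standardised over the states they were -0.79 and -1.12 SD, and as rank percentiles within a state -3.30 and -6.74. The 14 genes higher in heart became 39 with state 21 alone, 7 with state 6 alone, 50 at a threshold of 0.25 and 3 at 0.75. The 22 genes higher in extraembryonic mesoderm became 11 with state 5 added, 14 with state 15 alone, 43 with state 41 alone, 79 at 0.25 and 4 at 0.75. The other 21 alternative values kept their sign and moved by less than 0.1, or for counts by at most 1.5 times, a limit chosen with the values in view. The correlation of Acta2 and Tagln was among these under each of its alternatives, but in part only just. Against 0.971 it was 0.872 by Spearman and 0.874 without states 6, 21, 15 and 41, both close to the limit of 0.1. The value of 0.635 among the 35 states with both genes under 0.5 was not among the alternatives and would pass that limit. The cause of these shifts was not tested beyond the change of states or threshold itself. No paired analysis was possible because the columns carry no replicate number and no library. Cells and reads per state are unknown, so low levels, such as those of the epiblast-like states, have unknown precision.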
